A study of Saccharomyces cerevisiae with 8 samples.

Results

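The 10 genes described here make, take up and sense thiamine (vitamin B1) in budding yeast, Saccharomyces cerevisiae. They were chosen by name, and each had 1 array probe set assigned to it alone, so 10 probe sets of 9275 tested, and 10 of the 5656 genes measured this way, are described. By role they comprise the regulators THI2 and THI3, the enzyme-related genes THI4, THI6, THI20, THI21, THI22 and THI80, and the uptake genes THI7 and PHO3. The study looked for transcripts that associate with Upf1p, a helicase needed for nonsense-mediated decay, in which mRNAs with a premature stop of translation are destroyed. In 4 selections TAP-tagged Upf1p, which binds IgG through its tag, was the bait, and 4 mock selections were run in parallel, each group numbered 1 to 4. All cells grew in YEPD, a rich medium, at 30 °C, and each selection's RNA was put on its own Affymetrix Yeast Genome S98 array. Strain, genotype beyond the tag, and how the mock cells differed are not given in the sources used here.

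Yeast builds thiamine from a pyrimidine unit and a thiazole unit that are made apart, joined as a phosphate, and turned into thiamine diphosphate, the cofactor of pyruvate decarboxylase and transketolase. External thiamine is taken up by a plasma membrane carrier, and a secreted phosphatase frees thiamine from its phosphates. Many of these genes are known to be repressed when cells have enough thiamine, through a regulatory system that includes Thi2p and Thi3p.

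The values are scaled intensities on a linear scale, and the array medians over the tested probe sets lay between 58.2 and 78.1. The 25th percentile of all tested values was 16.0, and signals below it are called dim here. Per the labels' protocols, the amounts of RNA were matched before the final clean-up, so a higher value means a larger share of the recovered RNA, not a larger yield. Total RNA of the same cells was not used here, so more binding to Upf1p and a higher transcript level in the tagged cells cannot be told apart. Log2 values across arrays correlated at 0.95 to 0.98 within Upf1p-TAP, at 0.97 to 0.98 within the mock and at 0.90 to 0.94 between groups. The tagged gene itself, NAM7, had signals of 5.83, 20.1, 12.9 and 17.5 with Upf1p-TAP and 28.7, 55.3, 76.4 and 41.7 in the mock, each tagged array below each mock array. Ratios below are log2 of Upf1p-TAP over mock after adding 4.09 to each intensity, fitted with limma with the pair of selections as a block, and adjusted over all 9275 probe sets.

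Of the 10 thiamine transcripts, 5 were higher with Upf1p-TAP, where 17.7% of all probe sets were, and 1 was lower, where 13.5% were. The higher ones were THI22, THI20, THI4, THI3 and THI7, and the lower one was THI2. THI6, THI21, THI80 and PHO3 did not pass the test. The groups did not overlap for 4 higher members, where this held for 14.9% of all probe sets, nor for 1 lower member, where it held for 11.1%. The median ratio was 0.60, against 0.00 over all probe sets tested, and the members ran from -0.75 to 1.67. Within single pairs their median was 0.49, 0.73, 0.75 and 0.84 in pairs 1 to 4, while that of all probe sets lay between 0.02 and 0.04. The call of THI7 ended in 9 of 12 alternative analyses and that of THI2 in 3, whereas THI3, THI4, THI20 and THI22 were called in all 12.

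**Figure D1:**
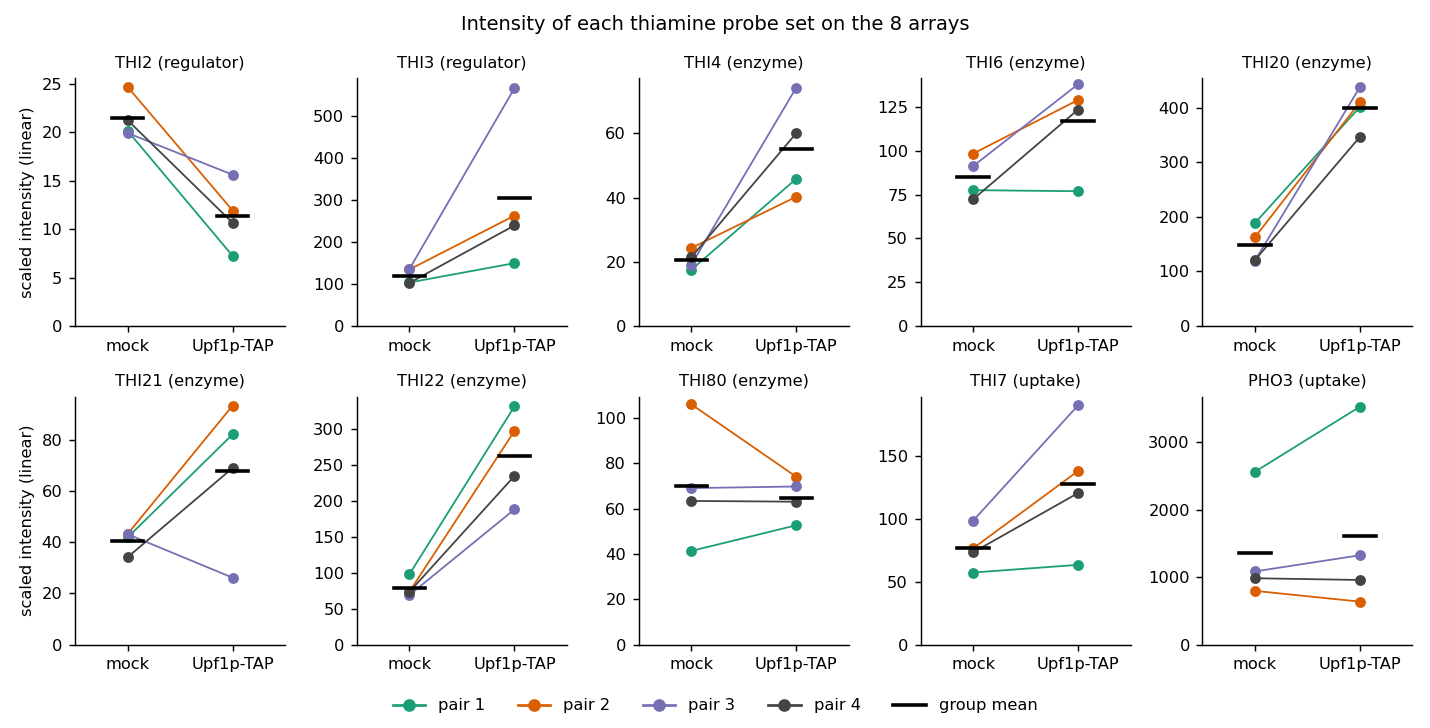
Scaled intensity (linear axis from 0, own range in each panel) of the 10 thiamine probe sets in mock and Upf1p-TAP selections. Points are arrays, lines join the 2 arrays of a pair, and black bars are group means. The groups do not overlap for THI2, THI3, THI4, THI20 and THI22.

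**Figure D2:**
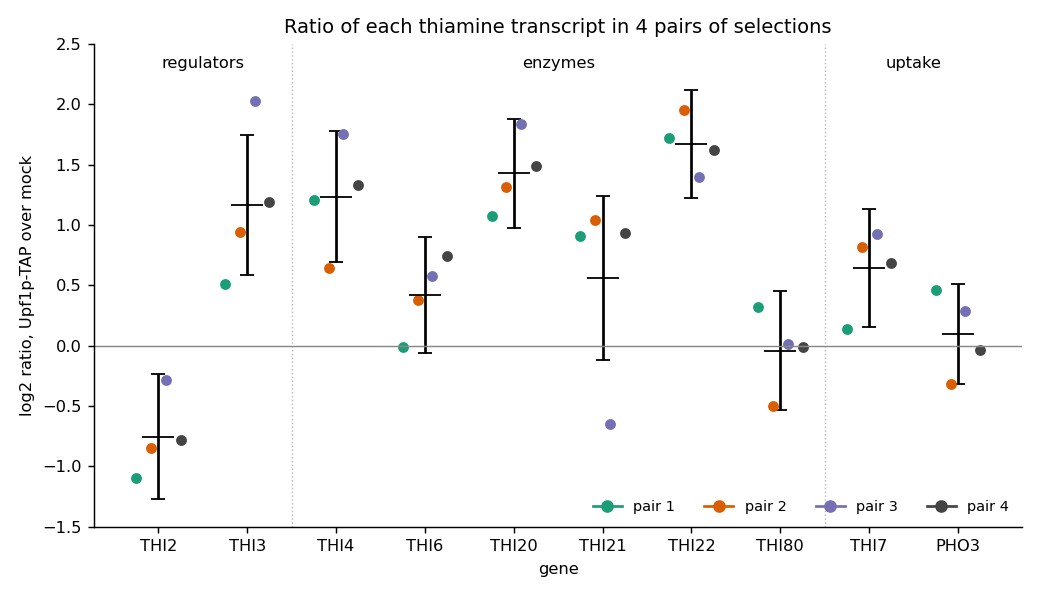
Log2 ratio of Upf1p-TAP over mock for each gene, in 4 pairs (points), with the fitted mean and its 95% confidence interval from limma (bars). The intervals of THI6, THI21, THI80 and PHO3 include 0, and THI21 in pair 3 lies at -0.64, apart from its other 3 pairs.

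The regulators went opposite ways. THI3 encodes a protein related to pyruvate decarboxylases that acts as a regulator of the thiamine genes, and THI2 encodes a transcription activator of the same genes. THI3 had signals of 150, 263, 567 and 240 with Upf1p-TAP and 104, 135, 136 and 103 in the mock. Each Upf1p-TAP array was above each mock array, and pair 3 stood highest. The ratio was 1.17 (SE 0.26, adjusted p = 0.00850 by limma), a 2.25-fold difference, and ran from 0.51 in pair 1 to 2.03 in pair 3. Without pair 3 it was 0.88.

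THI2 had signals of 7.24, 11.9, 15.6 and 10.7 with Upf1p-TAP and 20.2, 24.7, 19.9 and 21.3 in the mock. All 4 Upf1p-TAP arrays were dim and below each mock array, and the groups did not overlap. The ratio was -0.75 (SE 0.23, adjusted p = 0.0341 by limma), below 0 in 4 of 4 pairs. At these signals its size rests partly on the added 4.09, and was -0.97 with nothing added and -0.46 with 16.0 added. Its call ended without pair 1, 2 or 4 (ratios of -0.64, -0.72 and -0.74). Within each of the 4 pairs THI3 lay above THI2, by 1.92 ± 0.30 on the log2 scale (SD over 4 pairs). An exact sign-flip test over 4 pairs has a smallest possible two-sided p of 0.13 (rounded), and that was its value here (0.188 adjusted over the 9 differences computed between related transcripts).

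Among the enzyme-related genes, 3 of 6 were higher and 0 lower by limma, beside 17.7% higher and 13.5% lower over all probe sets tested. None of the other 3 had an unadjusted p under 0.05. THI4 encodes the enzyme that makes the thiazole unit and that gives up a sulfur atom of its own chain in doing so. It had signals of 45.9, 40.3, 74.3 and 60.1 with Upf1p-TAP and 17.5, 24.3, 19.1 and 21.4 in the mock. The mock arrays lay just above the dim level, and the lowest Upf1p-TAP array was above the highest of them. The ratio of THI4 was 1.24 (SE 0.24, adjusted p = 0.00482), a 2.36-fold difference on the scale with the offset, and it was 0.94 with 16.0 added.

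THI20, THI21 and THI22 form a family related to the kinase that phosphorylates the pyrimidine unit. Thi20p and Thi21p carry that activity, whereas THI22 is not known to be needed for thiamine synthesis. THI20 had signals of 402, 410, 438 and 347 with Upf1p-TAP and 189, 163, 120 and 121 in the mock. The Upf1p-TAP arrays were close together, with a coefficient of variation of 9.57%, and all lay above the mock. The ratio of THI20 was 1.43 (SE 0.20, adjusted p = 9.78e-04), a 2.69-fold difference.

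THI22 had signals of 332, 298, 188 and 235 with Upf1p-TAP and 98.0, 73.7, 69.1 and 73.5 in the mock. Its groups did not overlap either, and its lowest Upf1p-TAP array was that of pair 3. At 1.67 (SE 0.20, adjusted p = 4.04e-04), or 3.19-fold, it had the highest ratio of the 10, above 96.6% of all probe sets tested. THI21 had signals of 82.4, 93.7, 26.2 and 69.2 with Upf1p-TAP and 42.0, 43.3, 43.2 and 34.2 in the mock. In pairs 1, 2 and 4 its signal was higher with Upf1p-TAP by 0.91, 1.04 and 0.94, and in pair 3 the Upf1p-TAP array lay below all mock arrays, a ratio of -0.64. The fitted ratio of 0.56 had a 95% confidence interval from -0.12 to 1.24 (adjusted p = 0.193), and without pair 3 it was 0.96 and called (adjusted p = 0.0166).

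THI20 had a higher ratio than THI21 in 4 of 4 pairs, by 0.87 ± 1.09 (SD), and by 0.33 without pair 3. THI22 also lay above THI21 in 4 of 4 pairs, and the difference THI21 minus THI22 was -1.11 ± 0.62, or -0.80 without pair 3. Between THI20 and THI22 the difference was -0.25 ± 0.52, negative in 3 of 4 pairs. Exact two-sided sign-flip p-values over the 4 pairs were 0.13, 0.13 and 0.375 for these differences (0.188, 0.188 and 0.422 adjusted over 9 differences). The copies are alike in sequence, and how far their probe sets read each other's transcripts was not tested. Pair 3 gave the THI20 family both its highest THI20 ratio (1.83) and its lowest THI21 and THI22 ratios (-0.64 and 1.40).

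The enzymes that join and finish the molecule did not pass the test. THI6 encodes a protein that joins both units to thiamine phosphate, and it had signals of 76.9, 129, 138 and 124 with Upf1p-TAP and 77.5, 98.4, 91.2 and 72.3 in the mock. It was level in pair 1 and higher with Upf1p-TAP in pairs 2 to 4, and the groups overlapped. Its ratio was 0.42, with a 95% confidence interval from -0.06 to 0.90 (adjusted p = 0.166).

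THI80 encodes thiamine pyrophosphokinase, which makes thiamine diphosphate and acts on thiamine from either source. Its signals were 52.6, 74.0, 69.7 and 63.0 with Upf1p-TAP and 41.3, 106, 69.0 and 63.3 in the mock, and the groups overlapped throughout. The ratio of THI80 was -0.04, and the interval from -0.53 to 0.45 leaves room for a fold between 0.690 and 1.37. The difference THI4 minus THI6 was 0.81 ± 0.47 (SD), positive in 4 of 4 pairs, and THI6 minus THI80 was 0.46 ± 0.55, positive in 3 of 4. Exact sign-flip p-values over the 4 pairs were 0.13 and 0.25 (0.188 and 0.321 adjusted over 9 differences).

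Of the uptake genes, THI7, which encodes the thiamine carrier of the plasma membrane, passed the test narrowly. Its signals were 63.5, 138, 191 and 121 with Upf1p-TAP and 57.4, 76.7, 98.7 and 73.5 in the mock. The Upf1p-TAP signal was higher in each pair, but the lowest Upf1p-TAP array, of pair 1, lay within the mock range. The ratio of THI7 was 0.64 (SE 0.22, adjusted p = 0.0494), with a 95% confidence interval from 0.15 to 1.13. It lost its call when the pair was left out of the model (adjusted p = 0.158), after median centring (0.50, adjusted p = 0.107), or without pair 2, 3 or 4 (highest adjusted p = 0.159).

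NRT1 and THI72 encode close relatives of the Thi7p carrier, NRT1 being a nicotinamide riboside transporter. NRT1 had signals of 16.6, 46.0, 41.8 and 52.5 with Upf1p-TAP and 14.3, 26.6, 21.4 and 17.6 in the mock. As for THI7, all pairs were higher with Upf1p-TAP and pair 1 least, and the ratio was 0.78 (SE 0.25, adjusted p = 0.0410). The call of NRT1 ended in 7 of 12 alternatives, among them without pair 2, 3 or 4 (highest adjusted p = 0.196). THI72 had ratios of 0.24 and 0.32 on its 2 probe sets, neither called (adjusted p = 0.494 and 0.373).

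THI7 minus NRT1 was -0.14 ± 0.38 (SD), positive in 2 of 4 pairs, and THI7 minus THI72 was 0.40 ± 0.26, positive in 4 of 4. Exact two-sided sign-flip p-values over the 4 pairs were 0.875 and 0.13 (0.875 and 0.188 adjusted over 9 differences). The names of the THI72 probe sets carry design marks that those of THI7 and NRT1 lack, and how specific they are to THI72 was not tested. Whether the probe sets of THI7 and NRT1 read each other's transcripts was not tested either.

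PHO3 encodes a secreted acid phosphatase that frees thiamine from its phosphates and is itself repressed by thiamine. Its mean mock signal was above that of 94.3% of all probe sets. PHO3 had signals of 3526, 636, 1323 and 957 with Upf1p-TAP and 2561, 795, 1084 and 983 in the mock. Both arrays of pair 1 stood well above the rest, so the spread lay between pairs and not between groups. The ratio of PHO3 was 0.10, with a 95% confidence interval from -0.32 to 0.51 (adjusted p = 0.729), higher in 2 pairs and lower in 2.

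PHO5, which follows PHO3 in the RefSeq gene order, encodes the related phosphatase that responds to phosphate. Its signals were 763, 630, 655 and 867 with Upf1p-TAP and 1244, 1124, 1291 and 1353 in the mock. Every Upf1p-TAP array was below every mock array, and the ratio of PHO5 was -0.79 (SE 0.17, adjusted p = 0.00682). PHO3 minus PHO5 was 0.88 ± 0.38 (SD), positive in 4 of 4 pairs, with an exact sign-flip p of 0.13 over the 4 pairs (0.188 adjusted over 9 differences). PHO3 and PHO5 are close copies, and cross-reading of their probe sets was not tested. PHO11 and PHO12, the other members of the list of secreted phosphatases, had no probe set of their own.

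**Figure D3:**
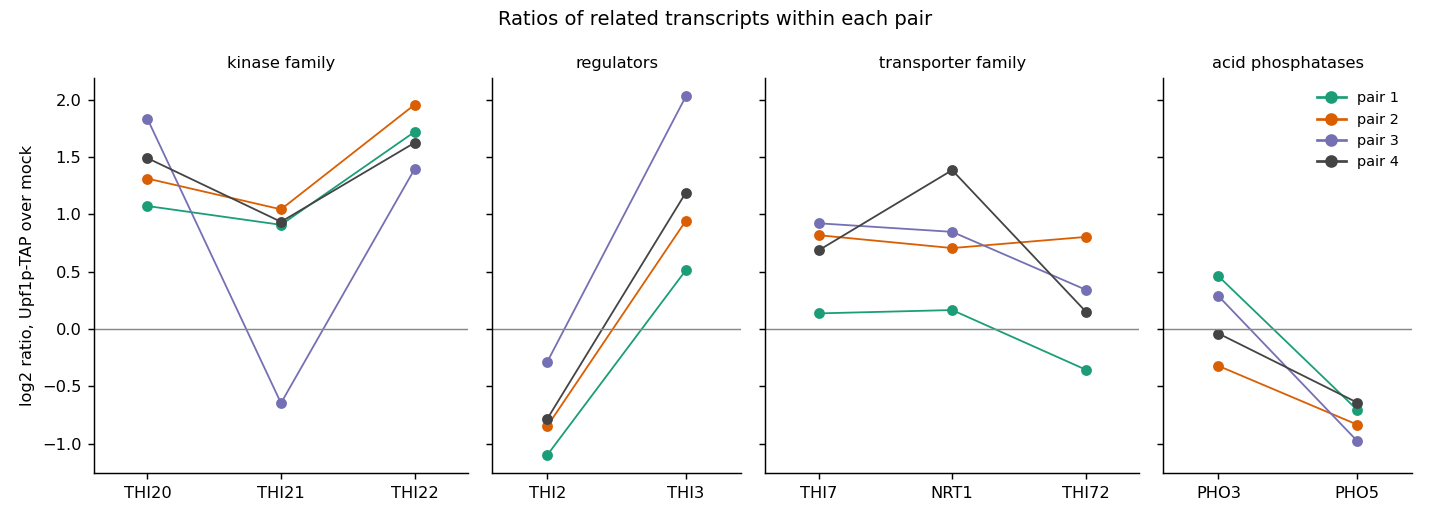
Log2 ratio of Upf1p-TAP over mock in each of 4 pairs (lines) for related transcripts. THI3 lies above THI2 and PHO3 above PHO5 in all 4 pairs, THI21 falls to -0.64 in pair 3 only, and THI7 and NRT1 are both lowest in pair 1.

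**Figure D4:**
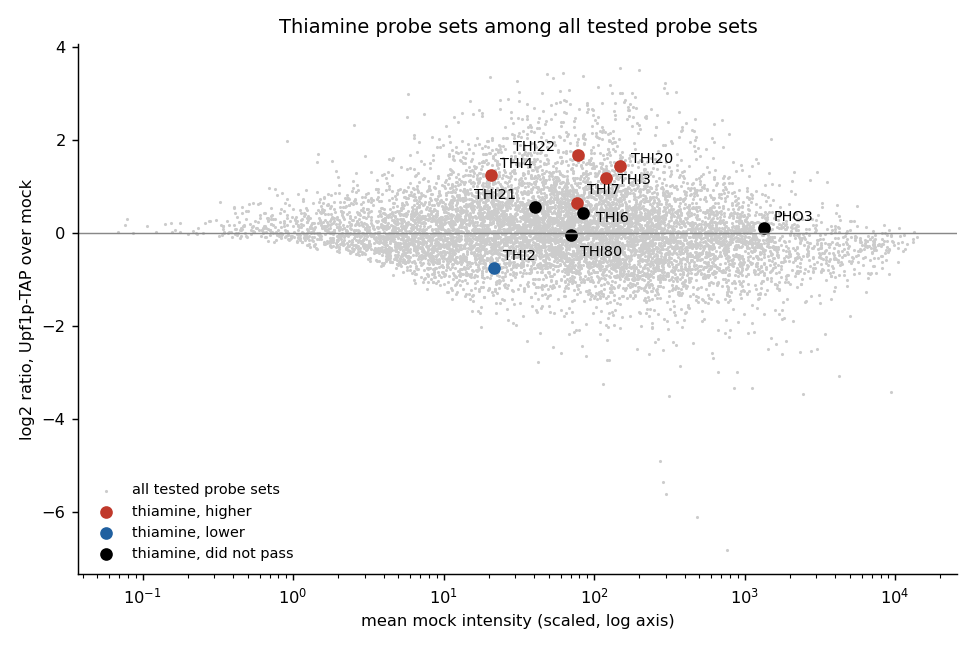
Fitted log2 ratio of Upf1p-TAP over mock against the mean mock intensity (log axis) for all 9275 tested probe sets (grey) and the 10 thiamine probe sets (coloured by call). The higher members range from THI7 at 0.64 to THI22 at 1.67, and PHO3 lies at a mean mock intensity of 1356, farthest to the right of the 10.

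Other genes of thiamine and the linked vitamin B6 pathway gave 5 of 11 measured higher and 0 lower by limma, where 17.7% and 13.5% of all probe sets were, with a median ratio of 0.58. The largest ratio was that of PET18, whose product is weakly similar to proteins of thiamine metabolism. PET18 had signals of 99.6, 232, 304 and 191 with Upf1p-TAP and 15.1, 26.5, 25.2 and 28.0 in the mock, without overlap. Its ratio was 2.84 (SE 0.23, adjusted p = 6.30e-05), larger than that of any of the 10 members.

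THI74, which encodes a predicted mitochondrial membrane transporter, had a ratio of 2.58 (SE 0.24, adjusted p = 1.09e-04), with a mean signal of 436 ± 201 against 65.5 ± 16.0 (SD, n = 4). SNZ1, a vitamin B6 synthesis gene, had 1.71, and TPC1, which encodes the carrier that brings thiamine diphosphate into mitochondria, had 1.64. NRT1, on the list as a relative of THI7, was the fifth, and its call ended in 7 of 12 alternatives. Genes for the pyrimidine unit, THI5, THI11, THI12 and THI13, share 1 probe set, which had a ratio of 0.08 and did not pass (adjusted p = 0.822). SNZ2, SNZ3, SNO2 and SNO3 had no probe set of their own. Of the 11 genes measured, the 6 that were not called included vitamin B6 genes, and their ratios reached down to -0.19.

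Genes for enzymes that use thiamine diphosphate gave 3 of 11 higher and 2 lower, with a median of 0.18, and these counts are near the shares over all probe sets (17.7% and 13.5%). PXP1, a peroxisomal protein of this enzyme family, had a signal of 309 ± 58.7 against 65.2 ± 12.3 (SD, n = 4) and a ratio of 2.17 (SE 0.23, adjusted p = 1.83e-04). PDC5, a pyruvate decarboxylase gene known to be repressed by thiamine, had 391 ± 38.9 against 146 ± 32.0 and a ratio of 1.41 (SE 0.19, adjusted p = 7.89e-04). PDC1, the main pyruvate decarboxylase gene, was lower at -0.53 (adjusted p = 0.0171), a call that ended in 6 of 12 alternatives, among them without pair 2 or 4 (highest adjusted p = 0.0706 of these) and without the pair block (adjusted p = 0.165).

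TKL1, the main transketolase gene, was the other lower one, at -1.11 (SE 0.17, adjusted p = 0.00153). PDB1, which encodes a subunit of pyruvate dehydrogenase, was higher at 0.83 (SE 0.17, adjusted p = 0.00651). PDA1, for its partner subunit, had -0.01 (adjusted p = 0.981). PDC1 and PDA1 were named after their values were seen.

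For comparison, genes for biotin, riboflavin, NAD and coenzyme A synthesis or uptake gave 7 of 31 higher and 5 lower, with a median of 0.03, again near the 17.7% and 13.5% over all probe sets. RIB7 of the riboflavin pathway (2.20) and NMA2 of NAD synthesis (1.68) had the smallest p-values. RIB2 (1.17) and RIB1 (-0.99), both of riboflavin synthesis, followed in opposite directions. No test was made of thiamine genes as a list against these.

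Of 20 protein-coding neighbours of the 10 genes in the RefSeq order, 17 had a probe set of their own, of which 2 were higher and 3 lower, with a median of 0.08, near the shares over all probe sets (17.7% and 13.5%). These neighbours were taken by position alone. SKN1 (1.45), on one side of THI4, and CLB5 (1.08), beside THI22, were higher, while ENP2 (-0.89), on the other side of THI4, and TIM12 (-0.81) and PHO5, on both sides of PHO3, were lower. The neighbours of THI3 and THI20, which were higher themselves, did not pass the test.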

How the data were processed

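The deposited table holds linear intensity values of 9335 probe sets on 8 arrays. GCOS is named, without a version, per the submitters' processing notes. Each array had been scaled before deposit, since its mean after trimming 2% at each end was 250.2 to 250.3. No scanner file or detection call was used. The number of arrays limits the precision, and the median SE of a log2 ratio was 0.23.

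Control probe sets (60) were left out. A platform table gave 1 gene for 6504 probe sets, several for 328 and none for 2443, and all 6504 matched the RefSeq table (assembly R64), which was used for symbols and gene order only. log2(intensity + 4.09), with the 10th percentile of tested values as the offset, was fitted with limma 3.58.1 in R 4.3.3, with group, the pair as a block and an intensity trend. P-values are two-sided, Benjamini-Hochberg adjusted over 9275 probe sets, with a threshold of 0.05. Ratios on this scale understate changes of dim transcripts. The script was tested on simulated data.

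The design text speaks of independent pairs, and the pair is the replicate number. Deviations from group means correlated at 0.18 to 0.55 for arrays of 1 number and at -0.54 to 0.35 otherwise. Such deviations cancel out within a group, so these ranges are not independent of each other. Nothing says more on separate cultures, so p-values cover only the spread among these selections, which may be technical.

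The members, lists and tests were chosen with earlier results of these data known. Named were all members, NAM7, the genes in 9 paired differences, and up to 4 genes of each of 4 lists with the smallest p. A gene of several probe sets was shown by an unmarked, then the brightest one. Alternatives changed the offset, normalization, filter, trend, block and pairs included.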

Additional observations from a re-analysis of the deposited data

Results flagged for a closer look

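In 1 of 20 sets of 4 arrays (10 members in both groups) an array stood apart from the other 3 by Dixon's test, and chance flags about 1 in 20. It was mock replicate 4 of THI21, at 34.2 against 42.0 to 43.3 on the other mock arrays. The gap was 0.864 of the range of that group. The Upf1p-TAP array of THI21 in pair 3 (26.2) was farther from its group but did not pass that test.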

How the results depend on the processing

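THI3, THI4, THI20 and THI22 stayed called higher in all 12 alternatives, and THI6, THI80 and PHO3 were called in none. THI7 was not called with no offset (0.67), the higher offset (0.58), median centring (0.50), quantile normalization (0.47), no replicate block (0.64) or the pair as a random block (0.64). Over fits that each left out 1 pair its ratio ran from 0.55 to 0.81, that of THI2 from -0.91 to -0.64 and that of THI21 from 0.40 to 0.96. PHO3 turned to -0.0457 after median centring and ran from -0.0239 to 0.24 with 1 pair left out, and THI80 from -0.16 to 0.11. The number of members called higher was 4 or 5 throughout and that called lower 0 or 1. Probe sets called higher numbered 1076 to 1384 and lower 775 to 953 with 1 pair left out, and 1340 and 931 without the replicate block, which changed the call of no other member than THI7. After median centring the median over all probe sets was -0.14 in place of 0.00, with 1310 higher and 1759 lower, and the share of higher calls from 56.8% to 42.7%.

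THI3 minus THI2 became 2.16 with no offset and 1.56 with the higher offset, and ran from 1.79 to 2.03 with 1 pair left out. THI7 minus NRT1 turned to 0.00279 with the higher offset and ran from -0.22 to 0.0526. The alternatives for the other lists and for NAM7 were added after seeing the data. PDA1 ran from -0.0567 to 0.0730 with 1 pair left out. The other vitamin and cofactor genes gave 3 to 8 higher and 2 to 5 lower. The thiamine diphosphate dependent enzymes gave 3 higher in each alternative and 1 to 3 lower. Over the same alternatives, the calls among all probe sets ran from 1076 to 1683 higher and from 775 to 1759 lower. Without pair 4 they were 1076 and 775, and the other vitamin and cofactor genes gave 3 higher and 2 lower. The list counts were not adjusted for the number of calls over all probe sets. The causes of these changes were not tested.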
